A study of Mus musculus with 20 samples.

Results

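The 10 genes Nfkb1, Nfkb2, Rel, Rela, Relb, Nfkbia, Nfkbie, Tnfaip3, Bcl3 and Birc3 encode the subunits of the transcription factor NF-kappaB and proteins that feed back on it. They were taken by name from the 55401 gene IDs of the liver count table, after the Ensembl IDs had been matched to mouse gene symbols, and the rule itself uses no measured value. All 10 were found, and all 10 were among the 14542 genes with enough counts to be tested. The lowest count of any of them in a chow library was 32, for Relb, so each passed the filter on its chow values as well.

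The livers came from C57BL/6 mice labelled WT. Chow-fed mice gave 10 libraries (chow 1 to 10), and mice fed a high-fat diet (HFD) for 12 weeks gave 10 more (HFD 1 to 10). Of the HFD, 60% was fat, 20% carbohydrate and 20% protein. Total RNA was extracted with Trizol from tissue stored in liquid nitrogen. The comparison asks how transcript levels in the liver differed between the diets. Age and sex were not given in the labels used here, and the labels did not state that each library was a separate mouse, so p-values refer only to the spread among these libraries. The study's design text speaks of 3 groups on the HFD, but the 10 HFD libraries carry the same labels and were taken as 1 group.

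NF-kappaB proteins act as dimers. In resting cells, inhibitors of the IkappaB family hold the dimers in the cytoplasm. Signals from receptors for tumour necrosis factor, interleukin 1 or microbial products activate a kinase complex that marks the inhibitors for degradation, and dimers of Rela with the Nfkb1 product p50 then enter the nucleus. A slower, noncanonical route processes the Nfkb2 product to p52, which pairs with Relb. Several targets of the pathway are its own inhibitors, among them the IkappaB genes and Tnfaip3 (A20), so their transcripts are commonly read as a record of pathway activity. In the liver, hepatocytes, resident macrophages (Kupffer cells) and infiltrating leukocytes all use the pathway.

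Chow libraries held 34727227 to 49065587 counts and HFD libraries 20111896 to 90033879. Libraries HFD 1 and HFD 2 stood apart: 75.6% and 94.4% of their counts came from the mitochondrial genome, against 1.34% to 3.10% in the other libraries, and 2237670 and 2860976 counts were left without mitochondrial and rRNA genes. The results are therefore given with and without HFD 1 and HFD 2. Chow 9 also stood apart by rRNA, which made up 20.4% of it, 13.3% of HFD 1 and at most 0.807% of each other library; chow 9 had the highest Bcl3 and the lowest Nfkbie and Birc3 level of the chow libraries. Apoe, which encodes apolipoprotein E and is a strong liver transcript, measured 12739 to 17328 CPM (counts scaled to a library size of 1e+06, with TMM-scaled sizes) in chow and 15.7 to 819 CPM in 9 HFD libraries, but 10124 CPM in HFD 6. The labels mention no change of Apoe, and in 19 of the 20 libraries the Apoe level and the diet cannot be told apart. HFD 6 is the HFD library with an Apoe level close to that of chow, and several of its values are named below.

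The promoters of the members are shown because several hold letters that match the motif NF-kappaB binds. Binding and regulation through these matches were not measured. RefSeq promoters (GRCm38.p6, 250 bases before to 50 bases after the start) were found for 8 of the 10 members, with 11 starts in all. None was found for Nfkb1 and Relb. Both strands were searched for the short motif GGNNTTTCC and for the 10-base NF-kappaB consensus. Matches of the 2 overlap in some places, and other places hold a match of the short motif or of the consensus alone. Capitals mark every base covered by a match on either strand. The windows printed are chr10:19015361-19015660 (minus strand) for Tnfaip3, chr12:55492598-55492897 (minus) for Nfkbia, chr19:46304487-46304786 (plus) for Nfkb2, chr11:23770920-23771219 (minus) for Rel, chr7:19822706-19823005 (minus) for Bcl3 and chr19:5637291-5637590 (plus) for Rela.
Tnfaip3, upstream start: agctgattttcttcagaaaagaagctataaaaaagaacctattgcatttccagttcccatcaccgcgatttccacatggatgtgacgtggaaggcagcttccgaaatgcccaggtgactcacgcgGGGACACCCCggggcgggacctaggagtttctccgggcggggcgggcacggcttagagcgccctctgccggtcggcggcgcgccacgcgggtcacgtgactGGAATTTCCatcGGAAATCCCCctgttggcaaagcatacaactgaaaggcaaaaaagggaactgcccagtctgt
Nfkbia: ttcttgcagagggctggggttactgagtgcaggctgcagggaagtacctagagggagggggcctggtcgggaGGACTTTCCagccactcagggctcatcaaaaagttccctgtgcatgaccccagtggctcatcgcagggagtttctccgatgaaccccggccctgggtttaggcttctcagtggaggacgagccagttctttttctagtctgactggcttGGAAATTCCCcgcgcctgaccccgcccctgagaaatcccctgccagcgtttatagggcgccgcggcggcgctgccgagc
Nfkb2, first start: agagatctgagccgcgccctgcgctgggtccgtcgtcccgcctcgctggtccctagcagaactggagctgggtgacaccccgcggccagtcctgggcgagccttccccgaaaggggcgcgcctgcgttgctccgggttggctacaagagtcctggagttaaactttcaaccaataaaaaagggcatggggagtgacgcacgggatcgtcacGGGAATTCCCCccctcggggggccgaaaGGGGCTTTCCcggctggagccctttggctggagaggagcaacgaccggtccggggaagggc
Rel: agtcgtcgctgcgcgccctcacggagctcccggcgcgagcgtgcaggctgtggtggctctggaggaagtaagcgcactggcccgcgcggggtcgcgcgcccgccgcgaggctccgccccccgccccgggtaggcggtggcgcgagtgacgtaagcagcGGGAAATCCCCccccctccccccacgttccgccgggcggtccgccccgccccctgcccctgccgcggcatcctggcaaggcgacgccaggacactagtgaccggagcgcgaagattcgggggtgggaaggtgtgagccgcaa
Bcl3: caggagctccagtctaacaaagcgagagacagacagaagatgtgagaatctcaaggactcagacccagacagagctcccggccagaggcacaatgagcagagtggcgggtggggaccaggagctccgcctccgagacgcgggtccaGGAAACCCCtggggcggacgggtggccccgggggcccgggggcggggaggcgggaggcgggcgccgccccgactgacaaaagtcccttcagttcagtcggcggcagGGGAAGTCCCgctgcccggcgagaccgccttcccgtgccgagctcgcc
Rela: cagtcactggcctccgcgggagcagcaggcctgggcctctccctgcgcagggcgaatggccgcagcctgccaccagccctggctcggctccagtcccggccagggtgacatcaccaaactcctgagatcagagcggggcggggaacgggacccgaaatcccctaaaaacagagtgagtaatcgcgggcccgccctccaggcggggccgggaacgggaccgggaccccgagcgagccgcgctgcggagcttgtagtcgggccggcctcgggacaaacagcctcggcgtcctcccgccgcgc

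The Tnfaip3 window held 2 matches of the short motif and 2 of the consensus, and the 3 capital runs lie at -125 to -116, -24 to -16 and -12 to -3 from the start (position 1 is the first transcribed base). In Nfkbia, the best known IkappaB gene, the runs lie at -178 to -170 and at -29 to -20. The first Nfkb2 start has a palindromic match at -39 to -30 that is read on both strands, and another at -11 to -2. Rel has a single run from -92 to -82. In Bcl3 the runs lie at -104 to -96 and, after the start, at 3 to 12. The Rela window has no match, and it is printed as the contrast.

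At least 1 match was found in 8 of the 11 member windows, belonging to 6 of the 8 members with a promoter, namely Nfkb2, Rel, Nfkbia, Nfkbie, Tnfaip3 and Bcl3. Over all 32851 promoters of the table, 5.82% held the short motif, 4.51% the consensus and 9.07% either. A match describes the letters only, and windows without one (Rela, Birc3 and the second Tnfaip3 start) say nothing about binding elsewhere.

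**Figure D1:**
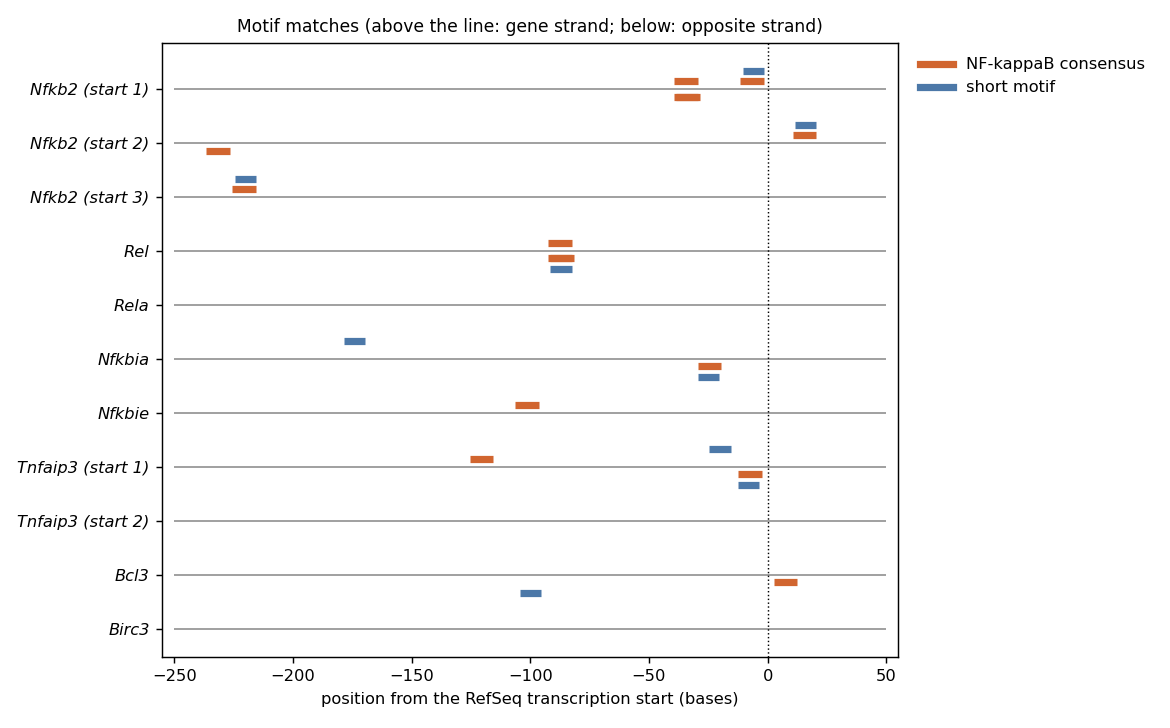
Positions of motif matches in the 11 RefSeq promoter windows of 8 members, in bases from the transcription start (dotted line); orange bars are the NF-kappaB consensus and blue bars the short motif, above the line for the gene strand and below it for the opposite strand. The windows of Rela, Birc3 and the second start of Tnfaip3 are empty.

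Transcripts of 8 of the 10 genes were higher in HFD livers and none was lower (adjusted p under 0.05, edgeR's quasi-likelihood test, Benjamini-Hochberg over all genes tested). Tnfaip3 rose most, with a log2 change of 2.62, followed by Relb at 1.93. Rela, the main activating subunit, did not pass the test, and neither did Rel. All 10 log2 changes were above 0, against 51.3% of all genes tested. At an unadjusted p under 0.05 there were 9 higher and 0 lower, and the share of all genes at that looser threshold was not counted. Over all 14542 genes tested, 13.0% were higher in HFD and 7.05% lower, 20.0% together, at an adjusted p under 0.05. Without HFD 1 and HFD 2, 9 of the 10 were higher and Rela did not pass, against 17.9% higher, 10.4% lower and 28.2% changed of 14842 genes. The median log2 change of the 10 genes was 1.19 with 20 libraries and 0.95 without HFD 1 and HFD 2, and that of all genes tested was 0.02 and 0.03. In bulk liver, a change in the number of cells of a type and a change in RNA per cell cannot be told apart.

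**Figure D2:**
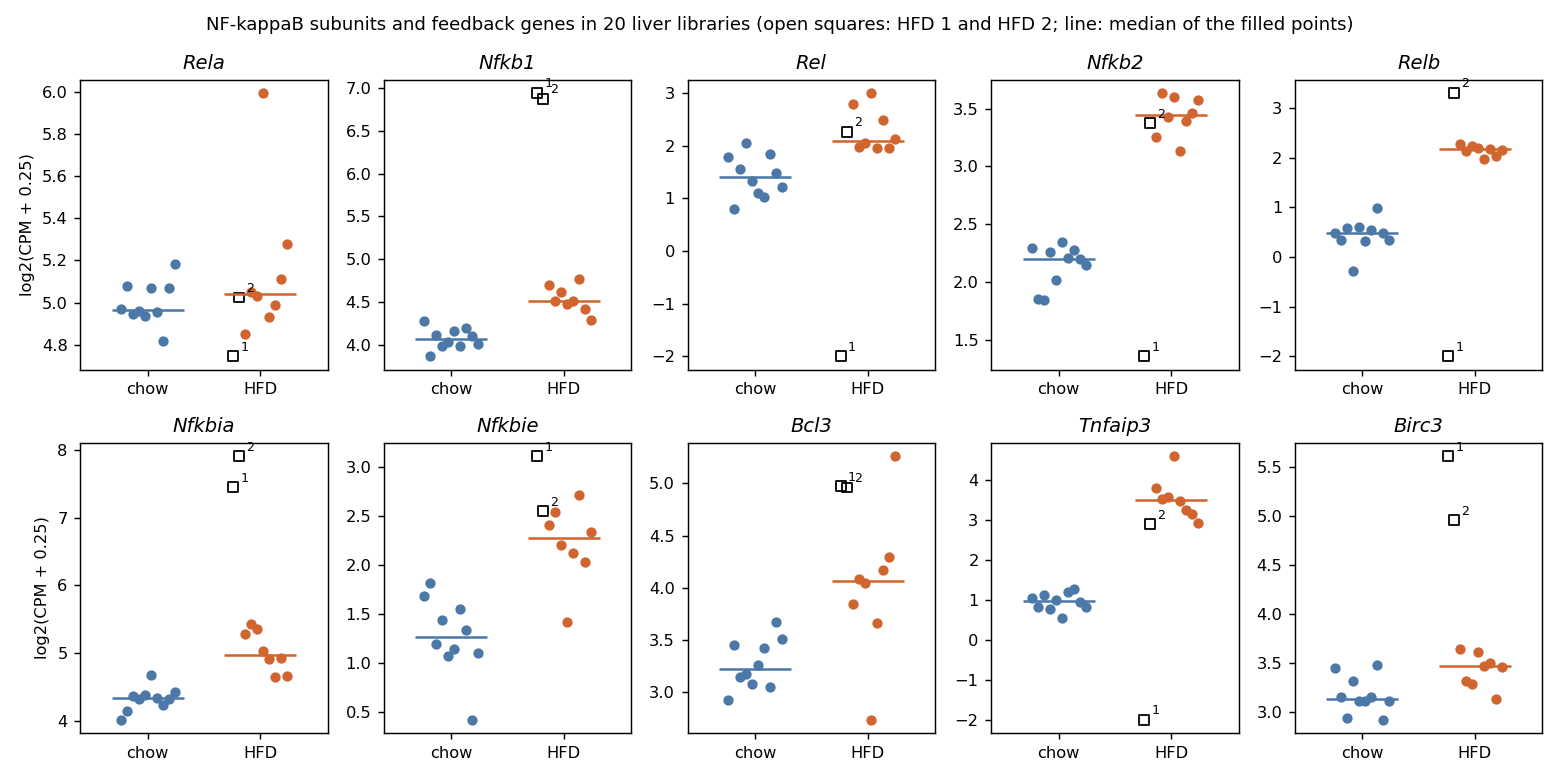
Level of each gene in each library as log2(CPM + 0.25), with chow in blue, HFD 3 to 10 in orange and HFD 1 and HFD 2 as numbered open squares; horizontal lines are medians of the filled points. In Nfkb1, Nfkb2, Relb and Tnfaip3 all 8 filled HFD points lie above the highest chow point, whereas in Rela 2 of them do.

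Among the subunits, Rela encodes p65, which carries the activation domain of the most common dimer. Its level in the chow libraries was 28.0 CPM at the lowest, 31.0 at the median and 36.1 at the highest, and in HFD 26.6, 32.4 and 63.5 CPM. The groups overlapped almost entirely: 2 HFD libraries, HFD 6 (63.5 CPM) and HFD 10 (38.5 CPM), were above the chow range. The log2 change was 0.14 (SE 0.13, adjusted p = 0.459), and 0.23 (SE 0.12, adjusted p = 0.169) without HFD 1 and HFD 2. Without HFD 6 it was 0.01 (adjusted p = 0.958). Scaled to library totals alone and without HFD 1 and HFD 2, Rela passed the test (log2 change 0.40, adjusted p = 0.035), a setting in which the median of all genes was itself shifted by 0.19.

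Nfkb1 encodes p105, which is processed to p50. It measured 14.4, 16.5 and 19.2 CPM (lowest, median, highest) in chow and 19.4, 23.5 and 123 CPM in HFD. Every HFD library was above every chow library. HFD 1 and HFD 2, at 123 and 117 CPM, lay far above the other 8, which reached 27.0 CPM. This gave a log2 change of 1.33 (SE 0.34, adjusted p = 0.00818) with them and 0.50 (SE 0.07, adjusted p = 3.56e-05) without, the same direction at a smaller size.

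Rel encodes c-Rel, a subunit best known from lymphoid and myeloid cells. Its level was 1.48, 2.41 and 3.87 CPM in chow and 0, 4.01 and 7.74 CPM in HFD. The ranges overlapped, with 6 HFD libraries above the chow range and HFD 1, at 0 counts, below it. With 20 libraries the log2 change was 0.81 (SE 0.31, adjusted p = 0.0712). Without HFD 6, which held the highest value, it was 0.69 (adjusted p = 0.107). Without HFD 1 and HFD 2 Rel passed (log2 change 0.97, SE 0.20, adjusted p = 0.000926), and leaving out HFD 1 alone gave adjusted p = 0.00122. A count of 0 in HFD 1 allows up to 0.866 CPM (3 counts, counting error only), which is under the lowest chow value.

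Nfkb2 encodes p100, the precursor of p52. Its level was 3.35, 4.35 and 4.83 CPM in chow and 2.31, 10.4 and 12.2 CPM in HFD. HFD 1, at 8 counts (2.31 CPM), was the lowest of all 20 libraries, but the 95% exact Poisson interval of that value (0.997 to 4.55 CPM, counting error only) reaches into the chow range. The other 9 HFD libraries lay between 8.55 and 12.2 CPM, all above chow. The log2 change was 1.23 (SE 0.19, adjusted p = 5.76e-05), and 1.38 (SE 0.10, adjusted p = 2.98e-09) without HFD 1 and HFD 2. Psd and AC114539.1 overlap Nfkb2 on the opposite strand, and the strand setting of the counting is not given. Their own counts reached 16.5% and 20.0% of the Nfkb2 count in the 18 libraries other than HFD 1 and HFD 2.

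Relb encodes the partner of p52. It measured 0.568, 1.14 and 1.73 CPM in chow and 0, 4.24 and 9.60 CPM in HFD. HFD 1 had no Relb count, which allows up to 0.866 CPM and so a level inside the chow range, and HFD 2 had the highest value, while HFD 3 to 10 fell within 3.69 to 4.56 CPM, a coefficient of variation of 7.04%. That was the smallest spread of the 10 genes in these 8 libraries, in which Bcl3 reached 52.0%. For Relb the log2 change was 1.93 (SE 0.33, adjusted p = 0.000172), and 1.92 (SE 0.15, adjusted p = 8.60e-09) without HFD 1 and HFD 2.

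**Figure D3:**
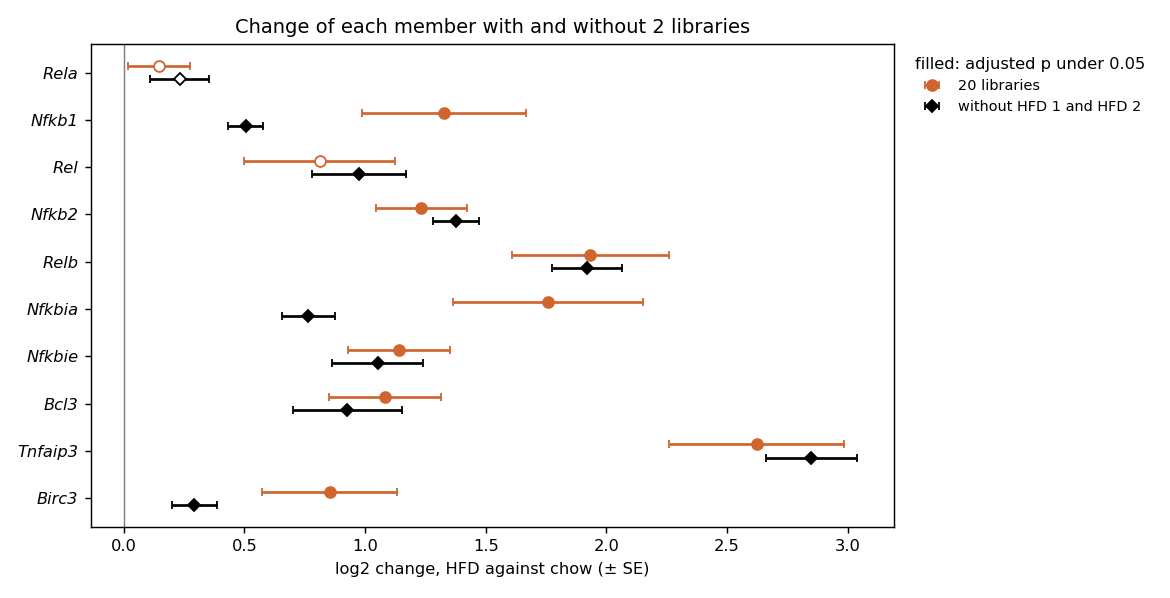
Log2 change of each gene, HFD against chow, with its SE, from 20 libraries (orange circles) and without HFD 1 and HFD 2 (black diamonds); filled symbols have an adjusted p under 0.05. Nfkb1 moved from 1.33 to 0.50, Nfkbia from 1.76 to 0.77 and Birc3 from 0.85 to 0.29 when the 2 libraries were left out, whereas Relb stayed at 1.93 and 1.92.

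Divided by gene length, the subunit levels can be compared with each other. The length was the one implied by the authors' FPKM values, and the unit is CPM per kilobase. In chow, Rela stood at 10.4 ± 0.741 CPM per kilobase (SD, n = 10), Nfkb1 at 1.38 ± 0.118, Nfkb2 at 0.916 ± 0.115, Rel at 0.337 ± 0.102 and Relb at 0.292 ± 0.0747. Rel and Relb did not differ beyond their spread (mean ± SD overlapped, here and below, and values were not paired by library). In HFD 3 to 10, Rela was still the highest at 11.9 ± 3.68 CPM per kilobase (SD, n = 8), with Nfkb2 at 2.32 ± 0.279, Nfkb1 at 1.92 ± 0.206, Relb at 1.08 ± 0.0760 and Rel at 0.648 ± 0.213. Nfkb2 and Nfkb1 did not differ beyond their spread there, whereas Relb and Rel did.

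The make-up of the subunit transcripts differed accordingly. Rela made up 72.9% to 82.1% of the summed length-scaled level of the 5 subunits in chow and 59.9% to 75.9% in HFD 3 to 10, where HFD 6 had the highest share. Nfkb2 and Relb together, the genes of the noncanonical dimer, took 7.46% to 11.6% in chow and 13.6% to 22.2% in HFD 3 to 10. These ranges did not overlap. HFD 2 was within the HFD range at 18.4%, and HFD 1 stood at 2.61%, from 8 counts of Nfkb2 and none of Relb. The ratio of Nfkb2 to Nfkb1 per kilobase ran from 0.516 to 0.765 in chow and from 0.946 to 1.59 in HFD 3 to 10, but was 0.0495 in HFD 1 and 0.228 in HFD 2. Shares and ratios were not tested.

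**Figure D4:**
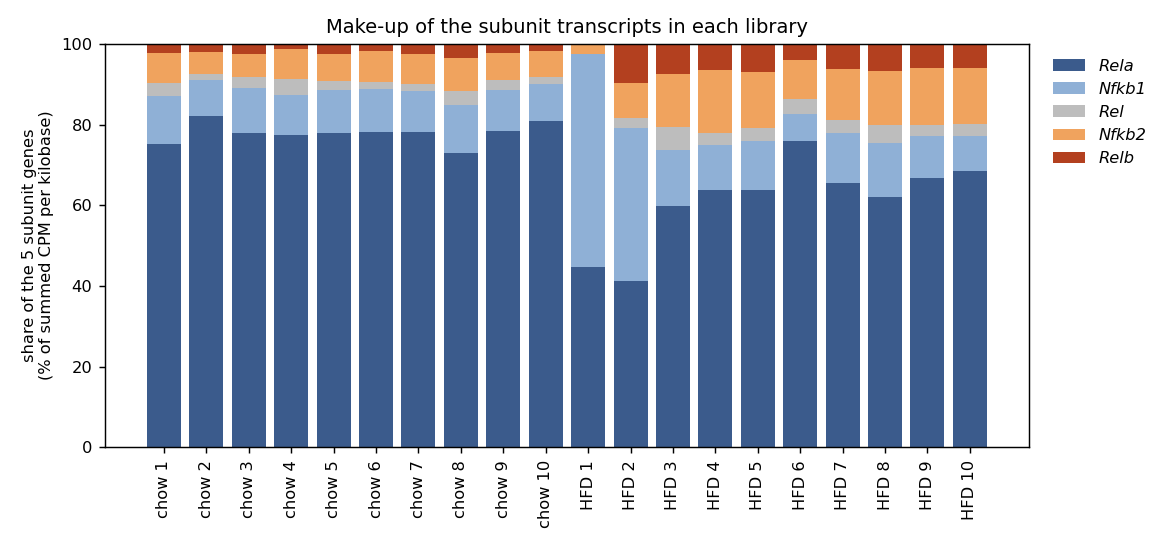
Share of each of the 5 subunit genes in their summed level (CPM per kilobase, percent) in each of the 20 libraries. Nfkb2 and Relb (orange and red) together take 7.46% to 11.6% in chow and 13.6% to 22.2% in HFD 3 to 10; in HFD 1 and HFD 2, Nfkb1 takes 52.6% and 38.0%.

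Among the inhibitors, Nfkbia encodes IkappaB-alpha, which binds Rela dimers and is resynthesised after each activation. It measured 15.9, 19.9 and 25.3 CPM in chow and 24.8, 35.7 and 240 CPM in HFD. HFD 1 (175 CPM) and HFD 2 (240 CPM) were far above the rest, 6 of HFD 3 to 10 were above the chow range, and HFD 8 (24.8 CPM) and HFD 10 (25.0 CPM) lay inside its upper end. Nfkbia had a log2 change of 1.76 (SE 0.39, adjusted p = 0.00286), and 0.77 (SE 0.11, adjusted p = 2.83e-05) without HFD 1 and HFD 2.

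Nfkbie encodes IkappaB-epsilon, an inhibitor known for binding Rela and c-Rel dimers. Its level was 1.09, 2.15 and 3.27 CPM in chow and 2.43, 4.92 and 8.37 CPM in HFD. All HFD libraries but HFD 6 (2.43 CPM) were above the chow range. The log2 change was 1.14 (SE 0.21, adjusted p = 0.000505), and 1.05 (SE 0.19, adjusted p = 0.000305) without HFD 1 and HFD 2.

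Bcl3 encodes an atypical IkappaB protein that works in the nucleus with p50 and p52. It measured 7.36, 9.08 and 12.5 CPM in chow and 6.43, 17.3 and 38.1 CPM in HFD. The groups overlapped: HFD 6 was the lowest of all 20 libraries and HFD 7 (12.4 CPM) fell just inside the chow range, whereas HFD 10 was the highest. Its log2 change was 1.08 (SE 0.23, adjusted p = 0.00207), and 0.93 (SE 0.22, adjusted p = 0.00429) without HFD 1 and HFD 2. The antisense transcript Gm16174 overlaps Bcl3, and its counts reached 15.8% of the Bcl3 count in the 18 libraries other than HFD 1 and HFD 2.

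Relb and Bcl3 are neighbours of Apoe on chromosome 7 (GENCODE M21, GRCm38). Relb lies at chr7:19606217-19629438, 66671 bases from Apoe, and Bcl3 at chr7:19808462-19822770, 109274 bases on the other side. In HFD 6, the HFD library with high Apoe, Bcl3 was below the chow range and Relb (4.33 CPM) was inside the range of the other HFD libraries.

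Tnfaip3 encodes A20, an enzyme that edits ubiquitin chains and ends signalling from several receptors. It measured 1.20, 1.70 and 2.16 CPM in chow and 0, 10.1 and 23.8 CPM in HFD. HFD 1 had no count, and the other 9 HFD libraries lay between 7.16 and 23.8 CPM, all above every chow library. Tnfaip3 had a log2 change of 2.62 (SE 0.36, adjusted p = 1.71e-05), and 2.85 (SE 0.19, adjusted p = 1.62e-09) without HFD 1 and HFD 2. HFD 6 was the highest, and without HFD 1, HFD 2 and HFD 6 the log2 change was 2.62 (adjusted p = 1.15e-11).

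Birc3 encodes cIAP2, a ubiquitin ligase that acts with the TRAF adaptors at tumour necrosis factor receptors and, in the noncanonical route, in the turnover of the kinase NIK. It measured 7.31, 8.52 and 10.9 CPM in chow and 8.53, 11.0 and 48.5 CPM in HFD. The ranges overlapped, and the 5 HFD libraries above chow included HFD 1 (48.5 CPM) and HFD 2 (30.7 CPM). The log2 change was 0.85 (SE 0.28, adjusted p = 0.0347), and 0.29 (SE 0.09, adjusted p = 0.0244) without HFD 1 and HFD 2. Birc3 passed in 13 of the 20 refits that left out 1 library each: the call was lost without chow 2, 3, 5, 7, 9 or 10 or without HFD 2, with an adjusted p of at most 0.066. Birc2, a close relative of Birc3 beside it in the genome, measured a log2 change of 0.14 (adjusted p = 0.642, and 0.22 at adjusted p = 0.0756 without HFD 1 and HFD 2), and how reads were shared between such copies is not given.

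Per kilobase, the feedback genes spanned a wide range in chow. Nfkbia stood at 12.4 ± 1.54 CPM per kilobase (SD, n = 10), beside Rela, from which it did not differ beyond the spread. Library by library, the ratio of Nfkbia to Rela ran from 0.979 to 1.45 in chow, with a median of 1.23. Bcl3 followed at 3.85 ± 0.658, Birc3 at 1.76 ± 0.242 and Nfkbie at 0.736 ± 0.206. Tnfaip3 was the lowest of the 10 genes at 0.236 ± 0.0405, and did not differ from Relb beyond the spread. In HFD 3 to 10 (n = 8), Nfkbia stood at 20.6 ± 4.32 CPM per kilobase, Bcl3 at 7.13 ± 3.70, Birc3 at 2.11 ± 0.253, Tnfaip3 at 1.67 ± 0.712 and Nfkbie at 1.49 ± 0.387. Tnfaip3 thus moved from rank 10 to rank 7. In the order Nfkb2, Birc3, Nfkb1, Tnfaip3 and Nfkbie, no gene differed from the next beyond the spread. The ends of this run, Nfkb2 at 2.32 ± 0.279 and Nfkbie, did differ. The ratio of Tnfaip3 to Nfkbia, both per kilobase, ran from 0.0106 to 0.0260 in chow and from 0.0590 to 0.163 in HFD 3 to 10, and was 0 in HFD 1 and 0.00664 in HFD 2.

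Read by library, HFD 3 had 9 of the 10 genes above the chow range, against 20.3% of all 14542 genes tested, and HFD 7 had 6, against 16.9%. HFD 4, 5, 8, 9 and 10 had 7 or 8 genes above the range and none below it, against 15.8% to 22.5% of all genes above it. In HFD 6 there were 8 above (33.5% of all genes) and Bcl3 was below (34.6% of all genes). HFD 1 and HFD 2 had far more of all genes outside the chow range, 29.3% above and 55.7% below in HFD 1 and 32.6% and 47.0% in HFD 2. In HFD 2, 8 members were above the chow range with their whole 95% Poisson interval, and the intervals of Rel and Rela reached into it. In HFD 1, where 1 count corresponds to 0.289 CPM, 5 were above (Nfkb1, Nfkbia, Nfkbie, Bcl3 and Birc3) and 2 below (Rel and Tnfaip3, at 0 counts), while the intervals of Nfkb2 and Rela and the limit of Relb reached into the range.

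The other genes of the pathway were read from 3 lists. Over all genes tested, 13.0% were higher in HFD and 7.05% lower, and 17.9% and 10.4% without HFD 1 and HFD 2. Of all 14542 genes, 507 were higher with library totals alone, 913 with the replicate block and 1261 with voom. The settings log2(FPKM + 1) and log2(FPKM + 0.1) called 431 and 286 higher. Among 26 receptors, adaptors and kinases, 10 were higher in HFD and none lower, with a median log2 change of 0.41; without HFD 1 and HFD 2, 13 were higher, none was lower and the median was 0.34. The gene with the smallest p was Tnfrsf11a, which encodes the receptor RANK, with 0.415 to 0.993 CPM in chow and 2.23 to 3.75 CPM in HFD 3 to 10 (log2 change 2.23, SE 0.27, adjusted p = 3.73e-06, and 2.12 without HFD 1 and HFD 2). Tlr2, a receptor for bacterial lipoproteins, measured 1.48 to 4.14 CPM in chow and 9.11 to 19.8 CPM in HFD 3 to 10 (log2 change 2.34, adjusted p = 6.75e-05, and 2.53 without HFD 1 and HFD 2). These ranges did not overlap in either gene, but Tlr2 had no count in HFD 1. Map3k14, which encodes the noncanonical kinase NIK, rose by a log2 change of 1.12 (adjusted p = 0.000779, and 1.17 without those libraries). Tlr4, the receptor for lipopolysaccharide, rose by 1.70 (adjusted p = 0.000875, and 1.78 without them). The 3 subunits of the kinase complex did not pass the test: Ikbkb had a log2 change of -0.17 (adjusted p = 0.308) and Ikbkg of -0.20 (adjusted p = 0.237), and without HFD 1 and HFD 2 of -0.06 and -0.20. Chuk had 0.09 (adjusted p = 0.799), and the sign turned to -0.25 (adjusted p = 0.144) without HFD 1 and HFD 2, which held 178 and 148 CPM. They were picked for their role, after their values had been seen. The list's counts moved with the processing: 2 were higher with library totals alone, 4 with the replicate block, and 3 and 1 with log2(FPKM + 1) and log2(FPKM + 0.1). At an unadjusted p under 0.05 and with DESeq2 or voom 0 were lower, but voom with quality weights called 2 lower, as did edgeR without HFD 1, 2 and 6.

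Of 15 other inhibitors, 14 were tested, and 5 were higher and none lower, with a median log2 change of 0.21 (1 was lower at an unadjusted p under 0.05, 0 with DESeq2 or voom, and 1 with voom and quality weights or without HFD 1, 2 and 6). Without HFD 1 and HFD 2 all 15 were tested, 8 were higher and the median was 0.38, while library totals alone and both FPKM settings called 1 higher and the replicate block 2. Nfkbiz encodes an inducible nuclear IkappaB protein and measured 1.30 to 3.69 CPM in chow and 6.86 to 17.5 CPM in HFD 3 to 10 (log2 change 2.18, SE 0.23, adjusted p = 5.51e-07, and 2.17 without HFD 1 and HFD 2). Zc3h12a, which encodes the RNase Regnase-1, rose by 1.44 (adjusted p = 0.000215, and 1.61 without them). Rnf11 and Tnip1, which encode partners of A20, rose by 0.50 (adjusted p = 0.016) and 0.60 (adjusted p = 0.0193), and by 0.38 and 0.79 without them. Nfkbiz was above the chow range in 10 of 10 HFD libraries, Zc3h12a in 9, Tnip1 in 8 and Rnf11 in 5.

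Of 29 known target genes, 24 were tested, and 20 were higher and none lower (also 0 lower at an unadjusted p under 0.05 and with DESeq2 or voom, and 1 without HFD 1, 2 and 6), with a median log2 change of 1.80; without HFD 1 and HFD 2, 22 of 25 were higher and the median was 1.90. Library totals alone called 13 higher, and log2(FPKM + 1) and log2(FPKM + 0.1) called 12 and 8. Il6, Ccl20, Cxcl2, Ptgs2 and Nos2 had too few counts to be tested with 20 libraries. A target that is low in chow passes the filter only where HFD is high, so these counts do not stand for the whole list. Traf1 is in this list and among the receptors and adaptors. Cd44, which encodes an adhesion receptor, measured 8.16 to 15.05 CPM in chow and 27.1 to 44.6 CPM in HFD 3 to 10 (log2 change 1.87, SE 0.13, adjusted p = 2.45e-09, and 1.82 without HFD 1 and HFD 2). Il1b, the interleukin 1-beta gene, rose by 2.67 (adjusted p = 4.83e-07), and the chemokine gene Ccl2 by 3.63 (adjusted p = 9.56e-07); without HFD 1 and HFD 2 these were 2.40 and 3.73. Lcn2, which encodes the iron-binding protein lipocalin 2, rose by 6.59 (SE 0.75, adjusted p = 1.52e-06), with 1.84 to 12.6 CPM in chow, 164 to 2507 CPM in HFD 3 to 10, and 15.6 and 63.2 CPM in HFD 1 and HFD 2. Its log2 change was 6.93 without those 2 libraries and 5.75 without HFD 10, which held the highest value. Sod2 (log2 change -0.15, adjusted p = 0.647) and Irf1 (0.05, adjusted p = 0.896), both textbook targets and named after their values had been seen, did not pass. Without HFD 1 and HFD 2 the sign of Sod2 turned (0.06, adjusted p = 0.805) and Irf1 had 0.20 (adjusted p = 0.547).

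**Figure D5:**
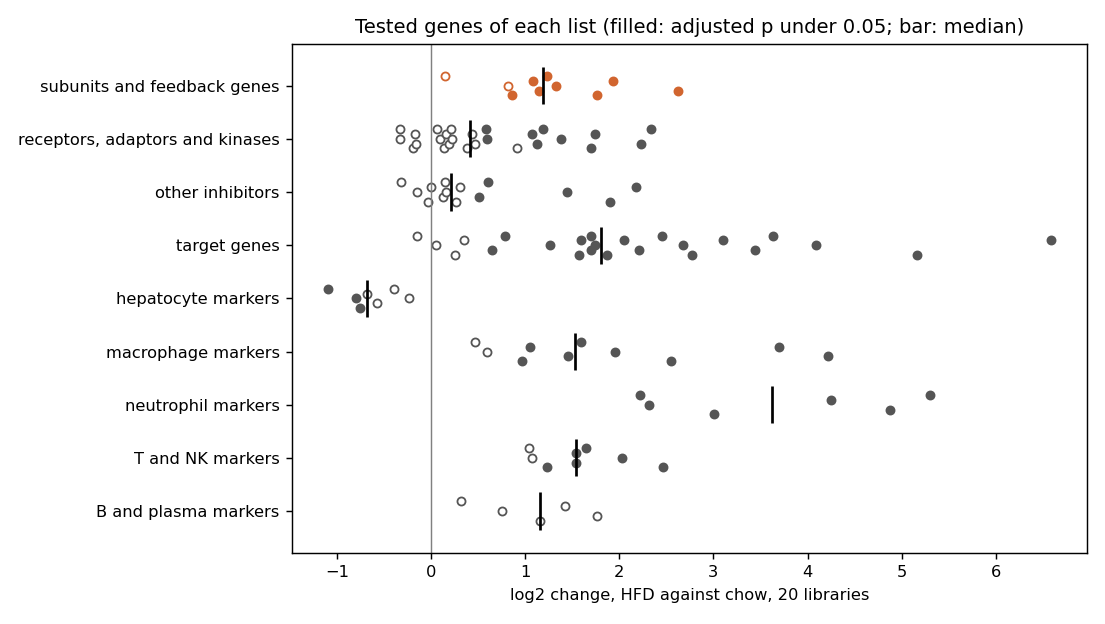
Log2 change, HFD against chow over 20 libraries, of every tested gene of the 10 members, 3 pathway lists and 5 marker lists; filled points have an adjusted p under 0.05 and black bars are medians. The medians are 1.19 for the subunits and feedback genes, 0.41 for receptors, adaptors and kinases, 0.21 for other inhibitors and 1.80 for target genes.

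Markers of leukocytes were read in the same way, beside 13.0% of all genes tested that were higher (17.9% without HFD 1 and HFD 2). Of 10 macrophage markers 8 were higher (9 without HFD 1 and HFD 2, 5 with library totals alone, 3 and 2 with the FPKM settings) and none lower, and their summed level was 348 to 615 CPM in chow, 1288 to 1579 CPM in HFD 3 to 10, 990 CPM in HFD 1 and 1817 CPM in HFD 2. The 6 neutrophil markers tested, of 8, were higher (7 of 7 without HFD 1 and HFD 2), but such markers are low in chow and can pass the filter through HFD alone, so the count is no support. Cxcr2 had 99 counts over the 10 chow libraries. The neutrophil markers had sums of 4.42 to 6.45 CPM in chow and 23.0 to 361 CPM in HFD 3 to 10. Ly6g, which defines neutrophils in the mouse, had no count in any chow library and was not tested. Of 8 markers of T and NK cells 6 were higher (7 without HFD 1 and HFD 2), but voom, library totals alone and the replicate block called 1 each and the FPKM settings 0. Their sums were 3.39 to 5.90 CPM in chow and 1.69 to 26.5 CPM in HFD 3 to 10. Of 5 tested markers of B and plasma cells none passed, with or without HFD 1 and HFD 2. At an unadjusted p under 0.05, 1 was higher, while DESeq2 called 1 lower and voom 0. The sums of this list overlapped (5.44 to 18.1 CPM in chow, 2.25 to 207 CPM in HFD 3 to 10). Of HFD 3 to 10, 5 libraries were below the chow range of the sum and 1 was above it. The part of the leukocytes in the change of the subunits and feedback genes was not tested.

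The labelled tissue was checked on hepatocyte markers: 7 of 8 listed genes were matched, and their sum was 68845 to 109706 CPM in chow, 37035 to 79947 CPM in HFD 3 to 10, and 20364 and 16931 CPM in HFD 1 and HFD 2. Of these 7 genes 3 were lower in HFD and none higher, with and without HFD 1 and HFD 2. Of all genes tested, 7.05% and 10.4% were lower. Voom called 5 of the 7 lower (1329 of all 14542 genes), library totals alone 0 (93) and the FPKM settings 0 (285 and 209). No endothelial marker passed of 6 (3 were higher at an unadjusted p under 0.05, and DESeq2 and voom called 1 each). Of the stellate cell markers 2 of 6 were higher, and of the tested cholangiocyte markers 1 of 5, against 13.0% of all genes tested. Without HFD 1 and HFD 2, 3 endothelial, 4 stellate and 2 cholangiocyte markers were higher, against 17.9% of all genes tested.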

How the data were processed

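RNA-seq of 20 mouse liver libraries (10 chow, 10 high-fat diet) was analysed. Gene counts and FPKM values, 1 table each, are as the authors deposited them. Every deposited FPKM value follows from its count, the total of its column and a single gene length (27216 genes, largest relative deviation 3.19e-13), and these lengths gave the levels per kilobase. Per the submitters' processing notes, fastp and mm10 were used. How reads were aligned and counted, and with which strand setting, is not given in the sources used here. GENCODE M21 (GRCm38, the assembly of mm10) named 55141 of the 55401 gene IDs.

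Tests used edgeR 4.0.16 (R 4.3.3) on the counts. Genes were filtered by filterByExpr with a minimum count of 10 and a minimum total of 15, and libraries were scaled by TMM. The quasi-likelihood model was robust and held diet alone. Its F test was two-sided, p-values were Benjamini-Hochberg adjusted over all genes tested, and a gene was called at an adjusted p under 0.05. Each SE of a log2 change was derived from this test, as the absolute log2 change divided by the square root of F. CPM used TMM-scaled library sizes, which were 3464114 in HFD 1 and 5729645 in HFD 2, against totals of 20111896 and 54320148. High values in HFD 1 and HFD 2 therefore depend on this scaling, and 1 count there corresponds to 0.289 and 0.175 CPM. Nfkbia rests on 606 and 1376 counts there, and Nfkbie on 29 and 32. The procedure was tested on simulated data. The simulated counts followed the chow means, so no simulated library had the mitochondrial share of HFD 1 or HFD 2, and the test does not cover such libraries. Within each diet, no pair of libraries agreed within sampling noise (lowest chi-square per gene 10.65, chow 3 with chow 5, over genes whose combined count reached 50). Chow libraries were not compared with HFD libraries in this check.

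The members, lists and tests were chosen with earlier results of these data known. Named genes were the 10 members, up to 4 genes of each pathway list with the smallest p, and Apoe; Birc2, the kinase subunits, Sod2, Irf1 and Ly6g were added for their role. Alternatives were limma 3.58.1 (voom, with and without quality weights, and trend on log2 of FPKM with 1 or 0.1 added), DESeq2 1.42.0, other scalings and filters, a replicate block and left-out libraries. The settings that join library totals or log2(FPKM + 1) with leaving out HFD 1 and HFD 2 were added after seeing the data. Motifs and figures used Python 3.11.15, pandas 2.3.3 and matplotlib 3.10.9.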

Additional observations from a re-analysis of the deposited data

Results flagged for a closer look

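A library was singled out where its gap to the nearest other library of its diet, divided by the whole range of the group, passed Dixon's critical value. This held in 11 of 46 groups tested (23 genes, 2 diets), 4 of them for members. Chance gives about 1 in 20 for independent, normally distributed values, but these groups share libraries, so the count is no test against chance. The rule can also miss 2 libraries that lie apart together. It did not flag Nfkb1, Nfkbia or Birc3, which were highest in HFD 1 and HFD 2.

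Among the members, Nfkb2 was lowest in HFD 1 at 2.31 CPM, against 8.55 to 12.2 CPM in the other HFD libraries. Rel was lowest in HFD 1 at 0 CPM, against 3.61 to 7.74. Rela was highest in HFD 6 at 63.5 CPM, against 26.6 to 38.5. Relb was highest in HFD 2 at 9.60 CPM, against 0 to 4.56.

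Among the other pathway genes, Tnfrsf11a was highest in HFD 1 at 9.24 CPM, Map3k14 highest in HFD 10 at 12.1 CPM and Tlr4 lowest in HFD 1 at 0 CPM. Ccl2 was highest in chow 4 at 0.852 CPM within chow and in HFD 6 at 15.6 CPM within HFD. Lcn2 was highest in HFD 10 at 2507 CPM, against 15.6 to 605. Apoe was highest in HFD 6 at 10124 CPM within HFD, against 15.7 to 819.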

How the results depend on the processing

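The count of genes changed was 2911 and that of members changed 8. Genes changed numbered 600 with library totals alone (84.5% of them higher, against 64.8%), 716 and 495 with limma-trend on log2(FPKM + 1) and log2(FPKM + 0.1), 4429 with DESeq2 (69.3% higher), 5364 with voom and quality weights (48.7% higher) and 4964 without HFD 1, 2 and 6 (54.9% higher; 9 members called); leaving out 1 library each gave 2424 to 3330. Library totals alone left 2 members called (Relb and Tnfaip3), log2(FPKM + 1) left the same 2, and log2(FPKM + 0.1) left 1 (Tnfaip3). Without HFD 1 and HFD 2 these settings called more: 10 members with library totals and 9 with log2(FPKM + 1), where 4228 genes (86.7% of them higher) and 3916 (83.4%) were called of 14842. The direction of Rela reversed with log2(FPKM + 1) (-0.24) and log2(FPKM + 0.1) (-0.35) over 20 libraries, where the median of all genes was -0.14 and -0.39. Without HFD 1 and HFD 2, limma-trend on log2(FPKM + 1) gave Rela 0.33 (adjusted p = 0.0547), with a median of all genes of 0.09. The cause of the reversal was not tested. The other 9 members kept their direction in all 36 alternatives, and Tnfaip3 was called in each, with an adjusted p of 1.85e-15 to 0.044. Birc3 was called in 23 of the 36 and Rel in 7.

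With the replicate number as a block, the replicate block fit called 1574 genes and 5 members; Nfkb1 (adjusted p = 0.062), Nfkbia (0.0552) and Birc3 (0.104) lost the call. Chow and HFD share only numbers: deviations of same-numbered libraries correlated at -0.111 to 0.126 over 10 pairs, and 2 of 10 pairs matched best with their own number. Depth limits HFD 1 and HFD 2, where 0 counts allow up to 0.866 and 0.524 CPM.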
